A study of Zea mays with 13 samples.

Results

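H3K27me3 was compared between well-watered maize plants sampled on day 7 (T7) and the start (T0) of a 7-day recovery period, in immature leaves still wrapped by older ones. The comparison uses 2 of the 13 samples of the series, 1 chromatin immunoprecipitation (ChIP-seq) library a side, and takes in all 43943 counted features, which are 43789 gene models and 154 microRNA genes. Both libraries come from the inbred line B73, and both sets of plants received 75% of disposable water at a salt concentration of 0.1 dS/m during the 10-day treatment period that preceded T0. The T7 plants had then been kept for 7 more days. They were never stressed, so that their T7 library serves as the time control of plants recovering from drought. Plants given 25% of disposable water for the same 10 days make up the drought-stressed groups, with 1 H3K27me3 library at T7 and 1 at T0. Those libraries entered the scaling and were used below as a second time comparison that shares no library with the first. Whether a library pools the tissue of several plants is not given in the sources used here.

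H3K27me3 is the trimethylation of lysine 27 of histone H3. Polycomb repressive complex 2 writes it, and in plants it lies mostly over whole gene bodies of genes kept silent in a given tissue or stage, among them many regulators of development and of phase change. It is diluted or removed when such genes become active and spreads when they are shut down, so that its level at a gene can shift as a shoot ages.

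The T7 library held 1612935 counts over genes and the T0 library 1861849, with median counts per feature of 23 at T7 and 27 at T0. Features with at least 40 counts over the 4 H3K27me3 libraries were kept, which left 33860 and removed 10083. With 1 library a side there is no replicate and no test of T7 against T0. A feature met the rule of size under a pair of conditions. The scaled levels had to differ by 1.5-fold or more, and the Clopper-Pearson interval of their ratio, given the sum of both counts and set at an error rate of 0.001, had to leave out 1. The 95% intervals printed beside log2 ratios cover counting error only, not the spread between plants or immunoprecipitations. Enrichment is the scaled count over the whole-chromatin count of the gene, expressed as a fold above the 25th percentile of genes, which takes out gene length. Whole chromatin came from 1 library of well-watered plants at T0 and stood in as background for both times. The T7 library stood apart from the other 3 before any gene was compared. Its 95th percentile of enrichment was 3.61 times the 25th, against 4.34 times in the T0 library, 4.46 times in stressed plants at T7 and 4.07 times in stressed plants at T0. Each H3K27me3 ratio of well-watered plants below rests on that library, so none of these can be given without it, and the part of this lower contrast in the results was not tested.

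Relative to the bulk of features, H3K27me3 was lower at T7 at genes that carry much of the mark. The scaling sets that bulk near a log2 ratio of 0, so a change shared by all genes could not be seen. The rule of size took 258 features, 0.762% of those measured. Of these, 225 were lower at T7 (0.665%) and 33 were higher (0.0975%). Genes at least 2-fold enriched in the sum of both well-watered libraries numbered 5660 among the measured features, against 28050 that were not enriched and 150 with too few whole-chromatin counts to tell. The 225 lower features held 205 enriched genes, 3.62% of the enriched, and 20 others, 0.0713% of the genes that were not enriched. The 33 higher ones held 2 enriched genes, 0.0353% of the enriched, and 31 others, 0.111% of the genes that were not enriched. With the smooth trend of the ratio on enrichment removed, 50 features were lower, 40 of them among the 225, and 30 were higher. The median log2 ratio of T7 over T0 was -0.23 at enriched genes (quartiles -0.51 and 0.10), with 68.7% of them below 0, and 0.05 at genes that were not enriched (quartiles -0.20 and 0.29), with 44.5% below 0. Over all measured features the median was 0.01. Summed counts of the enriched genes were 232422 at T7 and 328684 at T0, a log2 ratio of -0.30 (-0.31 to -0.29). Those of the other genes were 1336867 and 1484963, a log2 ratio of 0.05 (0.04 to 0.05). Among the 5455 enriched genes that did not meet the rule as lower the median was -0.21. Which genes met the rule also depended on their reads: 181 enriched genes had a T7 level of no more than 0.5 times that of T0, and 39 of them met it.

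**Figure D1:**
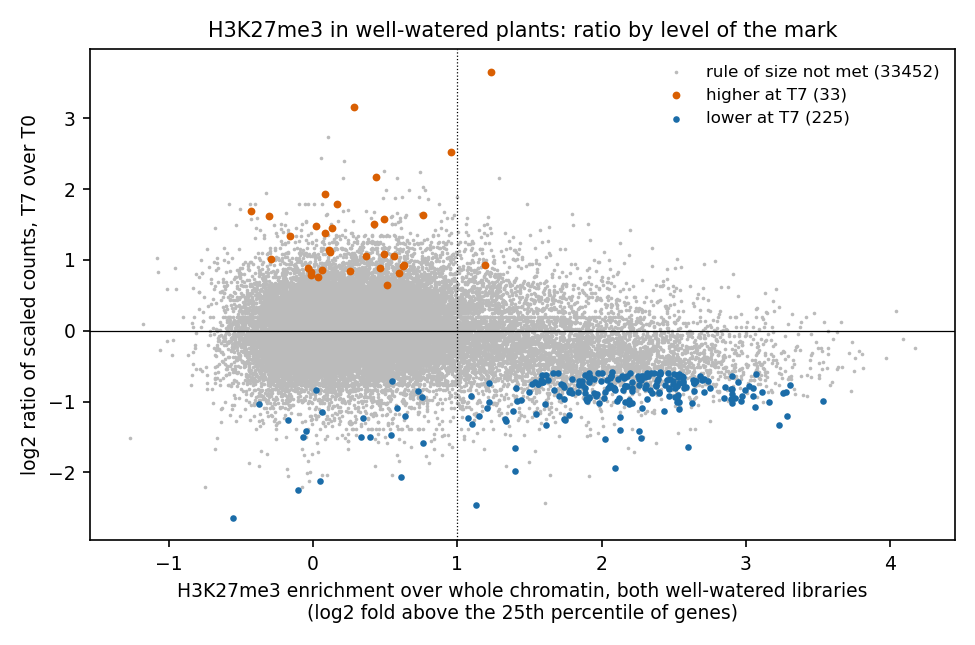
Each point is 1 measured gene. The horizontal axis gives its H3K27me3 enrichment in both well-watered libraries together (log2 fold above the 25th percentile) and the vertical axis its log2 ratio of scaled counts, T7 over T0. The dotted line marks 2-fold enrichment. Of the 225 lower genes 205 lie right of it, and of the 33 higher genes 31 lie left of it.

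The ratio ran with the level of the mark only at its upper end. To keep the ordering of genes apart from the libraries compared, deciles of enrichment were also formed from both stressed libraries. The median log2 ratio of well-watered T7 over T0 lay between 0.03 and 0.07 in the first 8 deciles. It was -0.06 in the ninth decile, whose genes were 1.83- to 3.01-fold enriched, and -0.32 in the highest one, where the median enrichment was 4.44-fold. The highest decile held 187 of the 225 lower features and the ninth held 20. Deciles formed from the well-watered libraries gave medians from -0.01 to 0.08 in the first 8, then -0.04 and -0.32. The highest decile lay 0.31 log2 units below the lowest one (-0.31). With the whole-chromatin counts of the 1 kb start-site window as background, which leaves gene length in the ranking, that difference was 0.0039, and the median of genes then called 2-fold enriched, which took 87.2% of counts at T7, was 0.0076. The pattern by level therefore needs the whole-gene background. Within the enriched genes the median went on down with level. It was -0.15 at 3868 genes enriched 2- to 4-fold, -0.36 at 1599 genes enriched 4- to 8-fold and -0.45 at 193 genes enriched at least 8-fold. The share that met the rule as lower did not follow that order, with 1.78%, 7.69% and 6.74%. The genes enriched at least 8-fold had a median of 45 whole-chromatin counts, which stand for length here, against 76 at 4- to 8-fold. The share also differed with length over all enriched genes. Of those with under 100 whole-chromatin counts 1.06% met the rule as lower, of those with 100 to under 300 it was 6.06% and of those with at least 300 it was 19.2%, with median log2 ratios of -0.16, -0.29 and -0.39. Among genes that were not enriched the same bins of length had medians of 0.06, 0.04 and 0.05. The shares that met the rule also depend on reads, of which longer genes hold more, and the part of reads in them was not tested.

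**Figure D2:**
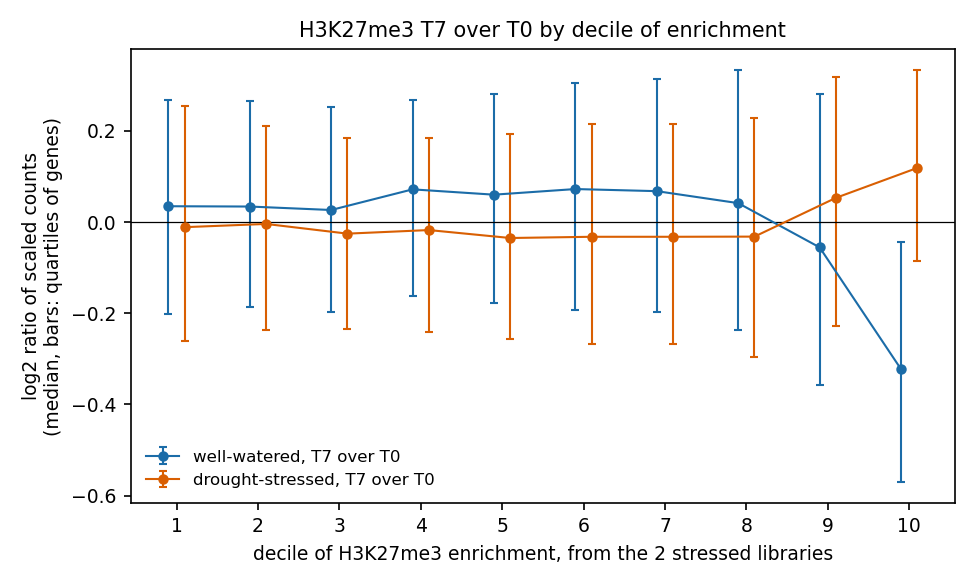
Median log2 ratio of scaled H3K27me3 counts, T7 over T0, for each decile of enrichment measured in both stressed libraries (decile 10 holds the most enriched genes), in well-watered and in drought-stressed plants. Bars span the quartiles of genes and are not errors. In well-watered plants the highest decile sits at -0.32 and the first 8 between 0.03 and 0.07, while in stressed plants the highest decile sits at 0.12.

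The same difference showed in shares of counts, which need no scaling between libraries. Enriched genes took 14.81% of all counts in the T7 library (exact binomial 95% interval 14.76 to 14.87) and 18.02% in the T0 library (17.97 to 18.08). With enriched genes chosen in the stressed libraries, which are not part of the comparison, the shares were 14.91% at T7 and 18.24% at T0 in well-watered plants, and 18.62% at T7 and 17.41% at T0 in stressed plants. The 395 most enriched genes by the stressed libraries, the top 1%, took 1.21% of counts at T7 and 1.62% at T0 in well-watered plants, against 1.67% at T7 and 1.49% at T0 in stressed plants. The well-watered T7 library was the lowest of the 4 on each of these measures. No intervals of any pair of the 4 libraries met on these shares, so intervals of counting error alone do not set T7 apart.

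**Figure D3:**
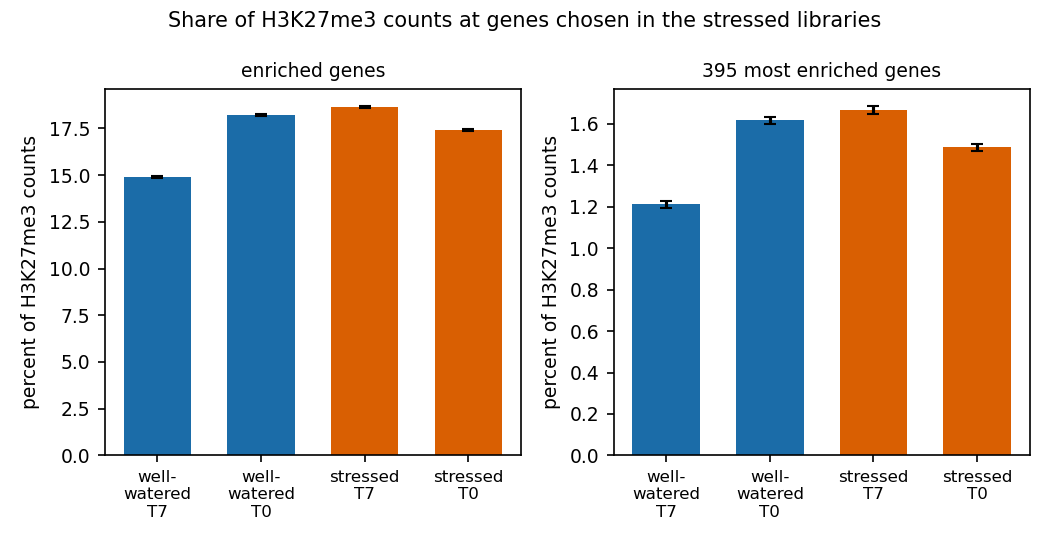
Percent of all H3K27me3 counts of a library that fell on genes at least 2-fold enriched in the stressed libraries (left) and on the 395 most enriched genes in them (right), for the 4 libraries. Bars start at 0, and error bars are exact 95% binomial intervals of counting error. Well-watered T7 is lowest in both, at 14.91% and 1.21%.

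Genes that carry H3K27me3 were then split by the active marks H3K4me3 and H3K9ac, which accompany transcribed promoters. A mark was taken as carried when its enrichment in the well-watered libraries was at least 2-fold. Among enriched genes the median H3K27me3 log2 ratio was -0.14 at 1288 genes with both active marks, -0.27 at 3143 genes with H3K4me3 alone and -0.21 at 1218 genes with neither. These classes differ in their level of H3K27me3, with medians of 2.82-, 3.61- and 2.59-fold. Held to genes enriched 4- to 8-fold, the medians were -0.29 at 264 genes with both, -0.36 at 1139 with H3K4me3 alone and -0.49 at 195 with neither, and 5.30%, 7.37% and 12.8% of them met the rule as lower. In that band the genes without an active mark had the lowest median, with quartiles (-0.65 and -0.27) that overlap those of genes with both (-0.53 and -0.03) and with H3K4me3 alone (-0.58 and -0.10). The order was another one at 2- to 4-fold, with medians of -0.09, -0.19 and -0.14, and at least 8-fold enrichment leaves 3 genes with neither mark. The whole-chromatin counts of the 4- to 8-fold classes also differed, with medians of 62, 77 and 101 in the same order, and the part of length in this order was not tested. The window in which the active marks were counted is not stated, and the 1 kb window at the start site was assumed for their background. With whole-gene counts as background the classes at 4- to 8-fold were in the same order, with medians of -0.30, -0.36 and -0.50 and shares of 2.19%, 9.29% and 25.3%. Their median whole-chromatin counts lay further apart, at 52, 115 and 197, and the part of length was again not tested. Of the genes with neither mark by this background, 60.3% carried H3K4me3 by the 1 kb one. The 225 lower genes carried H3K4me3 at 172 genes (76.4%) and H3K9ac at 42 (18.7%), against 78.3% and 23.0% of enriched genes and 71.8% and 48.9% of all measured features. With whole-gene background the 225 carried them at 44.9% and 23.6%, against 72.97% and 63.7% of enriched genes.

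Genes lower at T7 had a median log2 ratio of -0.82 and reached -2.64. In 55 of the 225 the T7 level was no more than 0.5 times that of T0. The tables give gene models by ID alone and the reference table lists 0 of the 43789 IDs, so these genes carry no name or function here, and the tissue could not be checked against marker genes. The gene with the most reads among them, Zm00001d013259, held 455 counts at T7 and 936 at T0 in well-watered plants, a log2 ratio of -0.84 (-1.01 to -0.68). Its stressed libraries held 769 counts at T7 and 803 at T0, and lay between the well-watered values. It was 4.44-fold enriched. The stressed libraries differed as well once scaled, by -0.20 (-0.34 to -0.05), in the same direction and by less. Zm00001d018667 held 414 counts at T7 and 746 at T0 (-0.65, -0.83 to -0.47), with 723 and 609 in stressed plants. Zm00001d013662 held 292 and 514 (-0.62, -0.83 to -0.41), with 504 and 412 in stressed plants. At both genes the 95% interval in stressed plants took in 0, at 0.11 (-0.05 to 0.27) and 0.15 (-0.04 to 0.35).

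The largest ratios came from genes with few reads. Among enriched genes Zm00001d045875 held 4 counts at T7 and 28 at T0 (-2.46, -4.58 to -1.09). Zm00001d024389 held 6 and 29 (-1.98, -3.63 to -0.78), and Zm00001d006911 held 6 and 28 (-1.93, -3.59 to -0.72). These 3 genes had 16, 19 and 17 counts in stressed plants at T7 and 14, 11 and 19 at T0, between the well-watered values in each case. Zm00001d036539 held 9 counts at T7 and 34 at T0 (-1.66, -2.96 to -0.63). Zm00001d038287, the most enriched of the 5 at 6.07-fold, held 13 and 48 (-1.65, -2.69 to -0.78). All 5 carried fewer than 50 reads in either library, and their intervals are wide.

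Among the 20 lower genes that were not enriched the median log2 ratio was -1.33. Zm00001d012301 held 5 counts at T7 and 39 at T0 (-2.64, -4.46 to -1.42), with 18 and 28 in stressed plants, and its enrichment was 0.68-fold, below the 25th percentile of genes. Zm00001d011534 held 4 and 24 (-2.25, -4.37 to -0.84) and Zm00001d031073 held 8 and 42 (-2.12, -3.49 to -1.08). Zm00001d027287 held 5 and 26 (-2.07, -3.92 to -0.77) and Zm00001d023107 held 11 and 39 (-1.58, -2.74 to -0.63). The first of these carried strong H3K4me3, 7.90-fold enriched, and Zm00001d011534 and Zm00001d027287 stronger still, at 20.4- and 21.2-fold. These 3 are thus genes with an active promoter mark and H3K27me3 below 2-fold.

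Genes higher at T7 were fewer and, unlike the lower ones, had the enrichment of a typical feature. Their median enrichment was 1.19-fold, against 1.22-fold over all measured features. Their median log2 ratio was 1.11 and their counts were 16 to 161 at T7 against 1 to 118 at T0. At 21 of the 33 the T7 level was at least 2 times that of T0. Zm00001d002414 held 16 counts at T7 and 1 at T0 (3.66, 1.51 to 9.59), with 15 and 11 in stressed plants, so that the well-watered T0 library was the low one. Zm00001d018815 held 19 and 2 (3.16, 1.40 to 6.59), with 13 and 15 in stressed plants. Zm00001d043710 held 17 and 3 (2.52, 0.91 to 5.12), with 10 and 10. Zm00001d002845 held 21 and 5 (2.17, 0.82 to 4.03), with 13 and 21, and Zm00001d028918 held 31 and 9 (1.93, 0.88 to 3.24), with 14 and 13. In stressed plants the 95% interval of each of these 5 genes took in 0, and the log2 ratios ran from -0.81 at Zm00001d002845 to 0.30 at Zm00001d002414.

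Higher genes with more reads lay nearer to the threshold. Zm00001d003555, the other of the 2 enriched genes among the 33 beside Zm00001d002414, held 83 counts at T7 and 50 at T0 (0.93, 0.41 to 1.47). Zm00001d005373 held 123 and 78 (0.85, 0.44 to 1.29). Zm00001d017258 held 130 and 86 (0.79, 0.39 to 1.21) and Zm00001d016280 held 161 and 118 (0.65, 0.30 to 1.0). The last is also the gene just inside the 1.5-fold threshold, followed by Zm00001d047882 with 112 and 76 (0.76, 0.33 to 1.20). Just outside it lay Zm00001d036318 with 193 and 153 (0.53, 0.22 to 0.85) and Zm00001d013887 with 256 and 208 (0.50, 0.23 to 0.77). On the lower side Zm00001d040611 with 261 and 450 (-0.59, -0.81 to -0.36) and Zm00001d033404 with 228 and 394 (-0.59, -0.83 to -0.35) were just inside. Zm00001d020938 with 307 and 529 (-0.58, -0.79 to -0.38) and Zm00001d010418 with 126 and 217 (-0.58, -0.91 to -0.26) were just outside. In all, 62 genes lower at T7 and 5 genes higher at T7 had an interval at that error rate of 0.001 that left out 1 but a ratio under 1.5-fold.

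**Figure D4:**
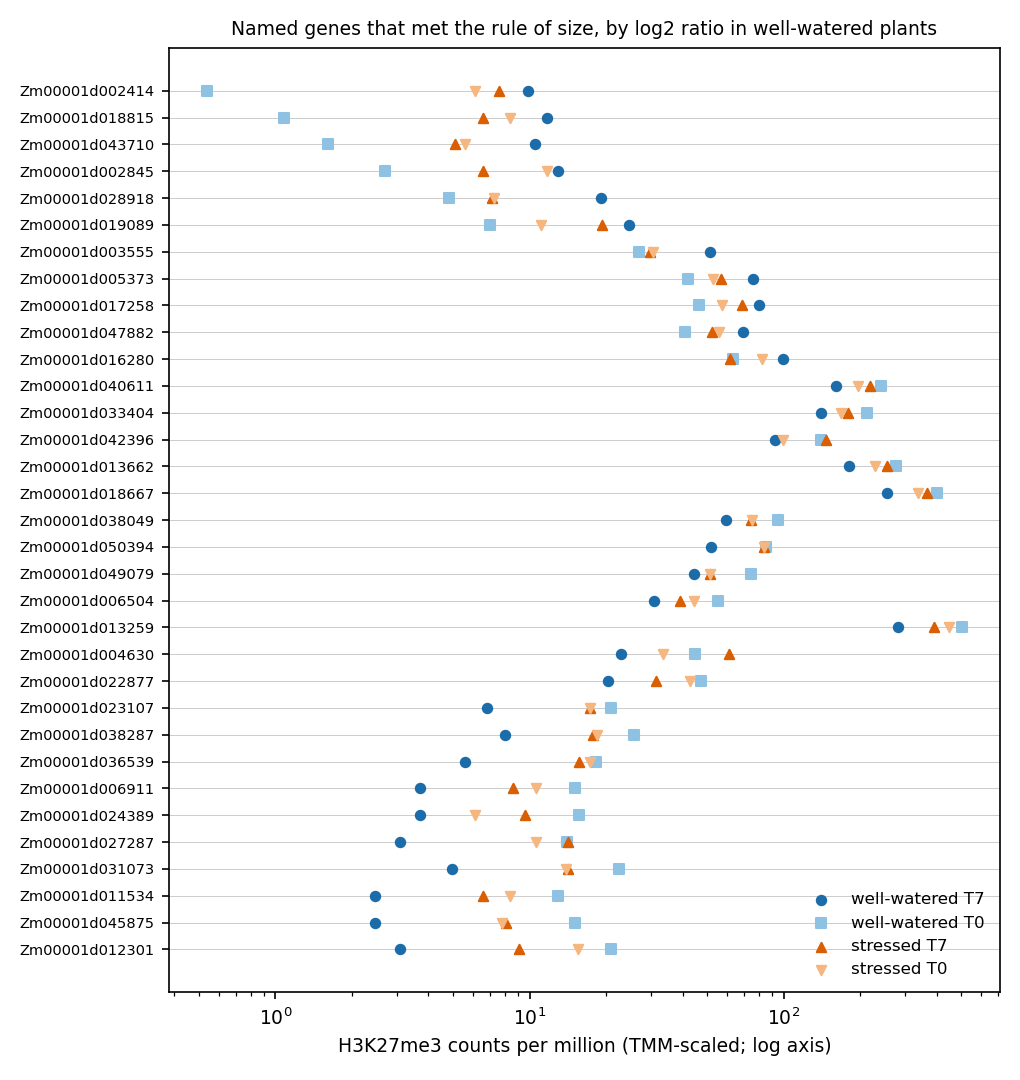
Scaled H3K27me3 CPM (log axis) of the named genes that met the rule of size, ordered by their log2 ratio in well-watered plants, in the well-watered T7, well-watered T0, stressed T7 and stressed T0 libraries. No replicate exists, so points carry no error bar. At the lower genes the dark circles of well-watered T7 lie left of the other symbols and at the upper genes right of them, and the stressed libraries lie mostly between the well-watered ones.

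The strongest carriers of the mark were read apart from the rule. The 3 genes with the highest enrichment in the stressed libraries, picked after the values were seen, were Zm00001d049521 with 57 counts at T7 and 54 at T0 (0.28, -0.29 to 0.84), Zm00001d045427 with 35 and 53 (-0.39, -1.06 to 0.24) and Zm00001d007761 with 48 and 72 (-0.38, -0.94 to 0.16). None of them differed beyond counting error. The 2 features with the most counts of all, chosen likewise, were only weakly enriched. Their whole-chromatin counts were also extreme, 18942 at Zm00001d019605 and 10659 at Zm00001d036307, against a median of 213 over all measured features. The part of such counts in their ratios was not tested. Zm00001d019605 held 3499 counts at T7 and 4795 at T0 (-0.25, -0.32 to -0.19), with -0.17 (-0.23 to -0.11) in stressed plants, and Zm00001d036307 held 2008 and 2589 (-0.17, -0.25 to -0.08), with -0.20 (-0.27 to -0.12). At both genes the level was lower at T7 in either watering. Both also met the rule as higher for the active marks in well-watered plants. Zm00001d019605 had log2 ratios of 1.25 for H3K4me3 (283 counts at T7 and 194 at T0) and 0.69 for H3K9ac (252 and 227), and Zm00001d036307 of 1.21 (453 and 320) and 0.94 (415 and 313). Neither active mark was 2-fold enriched at them. Zm00001d045427, one of the 3 strongest carriers, went the other way for H3K4me3, with 61 counts at T7 and 165 at T0 (-0.72, -1.17 to -0.29).

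Whether the active marks moved at the same genes was read from the H3K4me3 and H3K9ac libraries of the same well-watered groups. In those comparisons the rule took 1103 features for H3K4me3 (3.09%), 458 higher (1.28%) and 645 lower (1.81%), and 593 for H3K9ac (1.44%), 298 higher (0.722%) and 295 lower (0.714%). Of the 225 genes with lower H3K27me3, 6 had higher H3K4me3 (2.67% of the 225 and 1.31% of the 458) and 2 had lower. For H3K9ac 1 was higher and 1 lower. Of the 33 genes with higher H3K27me3, 1 had lower H3K4me3 and none (0) met the rule for H3K9ac. The median H3K4me3 log2 ratio was 0.02 at the lower and 0.08 at the higher genes, against -0.01 at all measured features, and that of H3K9ac was 0.15 at the lower and 0.07 at the higher genes, against -0.02. Over all enriched genes, which include 205 of the 225, the medians were -0.18 for H3K4me3 and 0.13 for H3K9ac. The H3K9ac median of the lower genes thus lay near that of the enriched genes as a whole.

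Single genes showed the opposed pattern. Zm00001d013259, named above for its 455 against 936 H3K27me3 counts, held 102 H3K4me3 counts at T7 and 81 at T0 in a much shallower T7 library, a scaled log2 ratio of 1.04. Zm00001d018667 held 82 and 71 (0.92). Zm00001d022877 met the rule for all 3 marks, with 33 H3K27me3 counts at T7 and 88 at T0 (-1.20, -1.84 to -0.62) and log2 ratios of 1.18 for H3K4me3 and 0.88 for H3K9ac. None of the marks was 2-fold enriched at this gene, with 1.55-fold for H3K27me3, 1.23-fold for H3K4me3 and 1.15-fold for H3K9ac. Zm00001d049079 held 72 and 138 H3K27me3 counts (-0.73) and 25 and 13 H3K4me3 counts (1.63), and Zm00001d038049 held 96 and 176 (-0.67) and 48 and 36 (1.12). H3K4me3 was 1.60-fold enriched at Zm00001d049079, below the 2-fold cut. It was 5.96-fold at Zm00001d013259, 5.58-fold at Zm00001d018667 and 3.07-fold at Zm00001d038049. In the other direction Zm00001d019089 held 40 and 13 H3K27me3 counts (1.78, 0.89 to 2.85) and 35 and 122 H3K4me3 counts (-1.08). Zm00001d050394 (-0.71 for H3K27me3 and -1.06 for H3K4me3) and Zm00001d042396 (-0.60 and -0.63) were lower for both. Zm00001d006504 was lower for H3K27me3 (-0.84) and H3K9ac (-1.57).

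H3K4me3 was lower at T7 as well over enriched genes that carried it, whether or not they met the rule. Among genes with H3K4me3 but no H3K9ac its median log2 ratio was -0.23 where H3K27me3 was enriched and -0.01 where it was not, at similar H3K4me3 levels (median log2 enrichment 2.41 and 2.46). Among genes with both active marks it was -0.23 and -0.04. The stressed plants showed it too, with medians of -0.15 and 0.02 in the class with H3K4me3 alone and -0.22 and 0.03 in the class with both marks. For H3K9ac the medians at genes with both active marks were -0.15 where H3K27me3 was enriched and -0.18 where it was not in well-watered plants, and -0.10 and 0.05 in stressed plants. Over all enriched and all other genes, with or without the mark, they were 0.13 and -0.04 in well-watered plants and -0.06 and 0.03 in stressed ones. At genes with neither active mark the medians lay above 0, at 0.38 where H3K27me3 was enriched and 0.58 where it was not for H3K4me3, and at 0.42 and 0.43 for H3K9ac. The enriched genes have fewer whole-chromatin counts, with a median of 78 against 252, and among genes with under 100 whole-chromatin counts the H3K4me3 medians in well-watered plants were -0.22 where H3K27me3 was enriched and -0.06 where it was not. They were -0.12 and 0.02 with 100 to under 300 whole-chromatin counts, and 0.014 and 0.015 with at least 300. The longest genes as a whole thus showed no such difference. These bins hold genes with and without H3K4me3, so they do not show how length bears on its carriers alone. The contrast of the well-watered T0 library was also the highest for H3K4me3, with 20.4-fold at T7 against 32.5-fold at T0, and for H3K9ac, with 4.47-fold against 6.61-fold. The part of this in the medians was not tested.

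The comparison of T7 with T0 gave another picture in stressed plants. Their H3K27me3 libraries met the rule at 67 features (0.198%), 41 higher at T7 (0.121%) and 26 lower (0.0768%). At enriched genes the median log2 ratio of T7 over T0 was -0.23 in well-watered plants and 0.10 in stressed plants, and at genes that were not enriched it was 0.05 and -0.02. At the 225 genes lower in well-watered plants it was 0.12 in stressed plants, with 69.3% higher at T7 and 30.7% below 0. That lies near the enriched genes as a whole, at 0.10 with 37.7% below 0. Over all measured features it was -0.0027. At the 33 higher genes it was -0.09. None of the 225 (a count of 0) was also lower in stressed plants, and none of the 33 (a count of 0) was higher. With shares of 0.0768% and 0.121% over all measured features, lists of this size would hold few or none. At 190 of the 225 lower genes and 30 of the 33 higher genes both stressed libraries lay between the well-watered T7 and T0 values. Scaled levels at the 225 genes had medians of 45.1 CPM at T7 and 79.6 CPM at T0 in well-watered plants, and of 65.9 and 63.4 CPM in stressed plants. At the 33 genes they were 34.6 CPM at T7 and 15.6 CPM at T0, and 22.3 and 23.9 CPM in stressed plants. The well-watered T7 library was the lowest of the 4 at 223 of the 225 and the well-watered T0 library the highest at 192. At the 33 genes T7 was the highest at 31 and T0 the lowest at 32. These genes were chosen for a large ratio between the well-watered libraries, which by itself tends to place the stressed pair between them. The counts of such genes therefore do not show where the stressed plants stand. Zm00001d004630 met the rule in both waterings, in opposite directions, with 37 counts at T7 and 83 at T0 in well-watered plants (-0.96, -1.57 to -0.39) and 120 and 60 in stressed plants (0.86, 0.41 to 1.34). It was 4.04-fold enriched for H3K27me3. With 1 library a group the difference between waterings has no residual spread to be tested against, and was not tested.

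MicroRNA genes are the features that the tables name. Plant microRNAs act in the change from juvenile to adult shoots and in leaf shape: miR156 restrains SPL transcription factors and holds the juvenile phase, miR172 acts on AP2-like factors and favours the adult phase, miR319 acts on TCP factors of leaf growth, miR171 on GRAS-family factors, miR166 on HD-ZIP III factors of leaf polarity, and miR390 starts the tasiRNAs that limit auxin response factors. Their genes were counted over short intervals, with a median of 2 counts at T7 and 2 at T0 and a highest count of 8 at T7 and 16 at T0, so that only 1 of the 154 passed the count filter and none met the rule (a count of 0). Counts were therefore summed. All microRNA genes together held 301 counts at T7 and 467 at T0, a log2 ratio of -0.43 (-0.65 to -0.22). At 82 genes the level was lower at T7, at 62 it was higher, and 10 had no count at either time. Stressed plants held 462 and 442 (-0.07, -0.26 to 0.12). The 93 microRNA genes between the quartiles of their whole-chromatin counts, 6 and 12, held 186 counts at T7 and 246 at T0 (-0.20, -0.49 to 0.08), and that interval took in 0. Of the 93, 43 were lower at T7, 45 were higher and 5 had no count. The 1202 gene models with 6 to 12 whole-chromatin counts held 2402 and 2517 (0.13, 0.05 to 0.21), with 446 lower, 563 higher and 193 without a count. The part of gene length and of low counts in the sum of all 154 genes was not tested. Pooled enrichment was 2.22-fold over all microRNA genes and 1.93-fold over these gene models.

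By family, 15 of 28 held at least 40 counts over the 4 libraries. Of these, 12 lay below 0 at T7, 3 of them with a 95% interval below 0, and none (0 of 15) had an interval at an error rate of 0.001 that left out 0 on the log2 scale. In stressed plants 7 of the 15 lay below 0 and none (0) had a 95% interval that left it out. The 11 MIR156 genes held 19 counts at T7 and 49 at T0 (-1.14, -2.01 to -0.38), against 40 and 45 in stressed plants, and 10 of the 11 were lower at T7 in well-watered plants. Their pooled enrichment was 3.23-fold. The 14 MIR171 genes held 18 and 42 (-1.0, -1.91 to -0.19), and the 4 MIR319 genes held 20 and 43 (-0.89, -1.75 to -0.11), with all 4 lower. In stressed plants MIR171 held 28 counts at T7 and 33 at T0, and MIR319 35 and 39. Of the families with at least 40 counts MIR319 had the highest pooled enrichment, 4.61-fold. The 2 MIR390 genes held 6 and 18 (-1.31, -3.01 to 0.01). MIR172, with 4 genes, held 11 and 18 (-0.49, -1.74 to 0.65). Its direction came from zma-MIR172e alone, with 2 counts at T7 and 14 at T0 (-2.34, -5.79 to -0.49) and 7 and 2 in stressed plants. The other 3 genes held 9 and 4 (1.28, -0.47 to 3.52), the opposite direction, with an interval that took in 0. MIR166 held 25 and 40 (-0.47, -1.26 to 0.28), of which zma-MIR166a had 5 and 16. The 13 MIR395 genes, whose microRNA acts in sulfate supply, held 22 and 23 (0.14, -0.78 to 1.04), and the families MIR160 (0.08) and MIR2118 (0.20) also lay above 0. The other families with at least 40 counts lay between -0.75 (MIR399) and -0.15 (MIR164). The narrowest interval of the 15, that of MIR169 (-0.21, -0.95 to 0.50), still takes in a 1.5-fold difference in the lower direction, so that smaller differences within a family were not detectable at this depth.

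**Figure D5:**
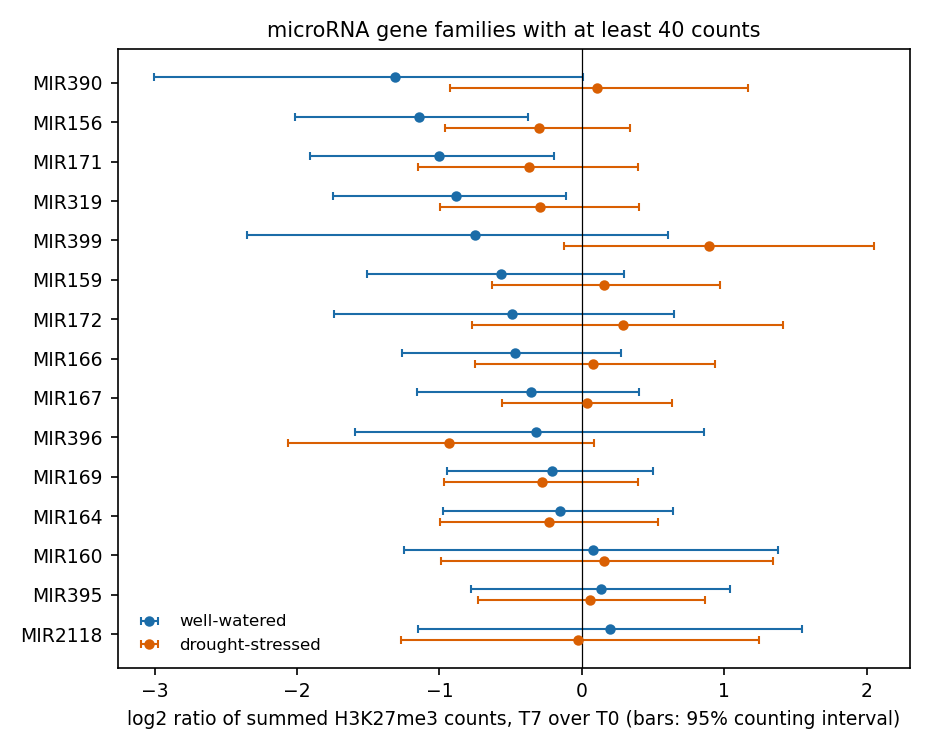
Log2 ratio of summed H3K27me3 counts, T7 over T0, for the 15 microRNA gene families with at least 40 counts, in well-watered plants (upper symbol of each pair) and stressed plants (lower symbol). Bars are exact 95% counting intervals. In well-watered plants MIR156, MIR171 and MIR319 have intervals below 0, and in stressed plants every interval includes 0.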

How the data were processed

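Per the labels, the authors deposited raw read counts per feature, with 1 table for each of 3 marks and 1 for whole chromatin. CASAVA 1.8, Bowtie2 and the genome B73 RefGen_v4 are named in the submitters' processing notes. The sources used here give neither the counting program nor the window of each mark nor any removal of duplicates. H3K27me3 counts followed whole-gene counts of whole chromatin across genes (Spearman 0.889 to 0.910) and not those of the 1 kb window at the start site (0.240 to 0.256), and so were set against the whole-gene counts. Where duplicate reads were kept, counts are not independent molecules, and intervals cover counting error only.

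TMM factors were fitted on the 4 libraries of each mark together (edgeR 4.0.16, R 4.3.3), and ratios and intervals were computed with scipy 1.17.1. Log2 ratios carry a prior of 0.5 counts. Genes with under 20 whole-chromatin counts got no enrichment. No model was fitted to T7 against T0, since 1 library a side leaves no residual spread. Within the rule of size, the genes named are, in each direction, the 5 with the largest ratio among enriched and the 5 among other genes, the 3 with the most counts, up to 4 that also met it for an active mark or in stressed plants, the 2 on either side of the 1.5-fold threshold, and the microRNA gene with the most counts of a family. Of these microRNA genes, those that bear on a family's sum are printed. The comparison, lists and rules were chosen with earlier results of these data known. Of the microRNA genes 153 have a name in the reference table (Zm-B73-REFERENCE-NAM-5.0), whose coordinates were not used.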

Additional observations from a re-analysis of the deposited data

Results flagged for a closer look

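Median H3K27me3 log2 ratios of T7 over T0 had opposite signs in well-watered and stressed plants, and the difference was not tested. Each group had 1 library. The contrast of a library (95th over 25th percentile of enrichment) was 3.61-fold at T7 and 4.34-fold at T0 in well-watered plants. In stressed plants it was 4.46-fold and 4.07-fold, and its part in the medians was not tested. At genes enriched for H3K27me3 the median log2 ratio of T7 over T0 was -0.23 in well-watered plants against 0.10 in stressed ones. At genes that were not enriched it was 0.050 and -0.024. At the 225 genes lower in well-watered plants the medians were -0.82 in well-watered plants against 0.12 in stressed ones. At the 33 higher genes they were 1.11 and -0.093. In both of these lists the well-watered value was used to choose the genes. Zm00001d004630 met the rule of size in both waterings, at -0.96 in well-watered and 0.86 in stressed plants.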

How the results depend on the processing

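No paired analysis was possible because each group has 1 library, and for the same reason no replicate could be left out. The direction at enriched genes held under each alternative run in which it was read but the 1 kb window. It was not read with the trend on enrichment removed, which takes this direction out by construction. The median at enriched genes was -0.27 with background genes at 0, -0.21 with no filter on low counts, -0.36 at 200 counts or more, -0.33 at 3-fold enrichment and -0.18 with a prior of 5 counts. That of the genes that were not enriched was 0.057, 0.039, 0.012 and 0.043 with total counts, TMM over the 2 well-watered libraries, background genes and the trend on abundance removed, and 0.0574, 0.0392 and 0.066 at 200 counts, at 3-fold enrichment and with a prior of 5. The shares of counts were 14.91% at T7 and 18.24% at T0 with enriched genes from the stressed libraries, and 9.14% and 11.8% at 3-fold. The highest minus the lowest decile gave -0.31, and -0.43 at 200 counts, -0.36 with deciles from the stressed libraries and 0.0039, reversed, with the 1 kb window as background, which leaves gene length in the ranking. With that window, an alternative chosen after seeing the data, genes called enriched took 87.2% of counts at T7 and 87.5% at T0, and the medians were 0.0076, reversed, at enriched genes and 0.035 at the others.

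Removing the trend on enrichment left 50 lower genes, 40 of them among the 225, and 30 higher ones. Medians at the lower genes were then 0.12 for H3K4me3, 0.010 for H3K9ac and 0.029 for H3K27me3 in stressed plants. A filter of 200 counts left 15 higher genes, and a threshold of 2-fold left 21 higher and 55 lower, whose medians were 0.11 for H3K4me3 and 0.061 in stressed plants. Intervals at 99% gave 234 higher and 544 lower, and at 95% 840 and 1174, where the lower genes had medians of -0.053 for H3K4me3 and 0.063 for H3K9ac. Background genes at 0 gave 23 higher and 293 lower. Of the 33 named genes that met the rule, 17 still met it with the trend on enrichment removed.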
